A study of Panicum sumatrense with 28 samples.

Results

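A set of 155 transcripts stayed abundant in every sampled tissue of Panicum sumatrense, the cereal known as little millet. They were chosen by their lowest tissue mean: the values of each of 101935 assembled transcripts were averaged per tissue, and a transcript was kept when none of its 10 tissue means fell below 100. The unit is TMM-scaled TPM, an abundance corrected for transcript length and library size that is then multiplied by 1 factor per library so that most transcripts become comparable between libraries. The rule allowed up to 200 transcripts, ranked by the lowest mean, and the 155 that passed were all kept, 0.152% of the table.

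All plants were of the genotype JK-8, grown in a growth chamber with no treatment named in the labels, and the tissue was the factor that differed between groups. The tissues were germinating seed (2 days after sowing), radicle and plumule, the first root and first shoot of the seedling (both 3 days), young root and young leaf (both 13 days), crown meristem (26 days), vegetative stem (48 days), and the panicle at an early, a mid and a late stage (61, 73 and 85 days). Young root and vegetative stem had 2 libraries each and every other tissue had 3, which gave 28 libraries. Nothing in the labels ties the replicates to separate plants, so p-values measure the spread between these libraries, which may be technical. Age and organ change together between most tissues, and fewer cells of a type and less RNA per cell cannot be told apart in whole-tissue RNA.

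Transcripts that all plant organs hold in quantity typically encode the machinery of any living cell: ribosomal proteins and elongation factors that make protein, ubiquitin that marks proteins for removal, actin and tubulin of the cytoskeleton, and enzymes of sugar breakdown. Such transcripts are often called housekeeping transcripts, and some are used as internal standards in expression assays. A transcript present everywhere need not be level: metal-binding proteins, water channels and stress proteins can be made in all organs and still be far more abundant in one. The table pairs none of its identifiers with a gene name, so no role was given to any of the 155, and the labelled tissues could not be checked against marker genes. The identifiers are those of the Trinity assembler, in which the DN and c numbers together name a cluster, g a gene and i an isoform. Near-identical copies share reads in such an assembly, so a single row can stand for several copies or take reads from them.

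Presence at this level in every tissue was uncommon among abundant transcripts. A tissue mean of 100 was reached in at least 1 tissue by 4327 transcripts, of which 2065 reached it in 1 tissue alone and 186 in 9 of 10. The 155 were 3.58% of the 4327. Their lowest tissue mean had a median of 156, and 98 of them lay below 200 and 4 at 1000 or more. None was listed at 0 in any library.

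Near the limit, membership turned on a fraction of a unit. The last 3 transcripts inside it were TRINITY_DN7587_c0_g1_i1 with a lowest mean of 101 (young leaf), TRINITY_DN15297_c0_g2_i2 with 100.2 (panicle late) and TRINITY_DN13220_c0_g1_i3 with 100.2 (panicle early). The first 3 outside were TRINITY_DN2764_c2_g2_i1 with 99.96 and TRINITY_DN8960_c0_g1_i4 with 99.8, both in young leaf, and TRINITY_DN841_c0_g1_i9 with 99.3 in panicle late. Single libraries fell lower than the tissue means: 116 of the 155 were at 100 or more in all 28 libraries, and 39 were under 100 in at least 1, the lowest value being 40.6. Young leaf was the tissue in which most members, 17, had a library under 100, and no member had one in germinating seed.

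The floor of 100 could be checked in libraries that took no part in the choice. When the rule was applied without 1 library, between 84.8% and 100% of the transcripts it then chose were at 100 or more in the library left out. The lowest share was that of young leaf library 3, in which 140 of 165 transcripts passed 100. Radicle library 2 followed with 93.0%. For 8 of the 28 libraries every transcript chosen without them was at 100 or more in them.

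The transcripts that were highest overall differed widely in how level they were. TRINITY_DN31280_c1_g1_i1 had the highest floor, 2581 ± 120 (SD, n = 2) in vegetative stem, and its highest mean was 5987 ± 478 (n = 3) in panicle late. Its libraries read 6055, 4814 and 4227 in germinating seed, 3141, 2634 and 2095 in radicle, 2589, 2363 and 2849 in plumule, 4783, 5127 and 5869 in young leaf, 3651 and 2992 in young root, 3838, 3593 and 3122 in crown meristem, 2496 and 2666 in vegetative stem, 4071, 3961 and 5077 in panicle early, 3854, 4537 and 4392 in panicle mid, and 5483, 6045 and 6433 in panicle late. Its level thus moved within a factor of 2.32 between tissue means, with panicle late, young leaf and germinating seed at the top and vegetative stem, plumule and radicle, whose libraries overlapped, at the bottom.

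TRINITY_DN26395_c0_g1_i9 was among the most level of the abundant transcripts. Its tissue means ran from 826 ± 86.6 in panicle mid to 1431 ± 364 in germinating seed (n = 3 each), a ratio of 1.73. Its libraries ranged from 766 to 1818, both extremes lying in those same tissues, and the germinating seed libraries (1380, 1818 and 1096) overlapped those of most other tissues. The smallest ratio of highest to lowest tissue mean, 1.62, was that of TRINITY_DN4007_c0_g1_i2, from 165 ± 11.1 (n = 2) in vegetative stem to 267 ± 18.0 (n = 3) in radicle. TRINITY_DN6265_c0_g1_i20 had a ratio of 1.75, with young root libraries at 303 and 167 that spanned much of its range.

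Across all 155 the ratio of the highest to the lowest tissue mean had a median of 6.24, with quartiles at 3.88 and 11.5 and a largest value of 799. It was under 2 for 6 transcripts and under 3 for 24, while 45 had 10 or more and 6 had 100 or more. The rule limits only the lowest mean, so a transcript could be high everywhere and still vary by 2 orders of magnitude. The 10 tissues were compared in 1 limma fit on log2(value + 1) over the 77548 transcripts that reached a value of 1 in 2 or more libraries, all 155 included. Of the 155, 152 passed limma's moderated F at a Benjamini-Hochberg adjusted p below 0.05, where 59.8% of all tested transcripts passed. The other 3 were TRINITY_DN6265_c0_g1_i20 (adjusted p = 0.050 by limma, just above the limit), TRINITY_DN119946_c0_g1_i1 (0.13) and TRINITY_DN346_c0_g1_i3 (0.28). Among the 4171 tested transcripts that reached 100 in 1 to 9 tissues 4148 passed, 99.4%, though these had to differ between tissues to be counted there. The rule drew on the same tissue means, so these and the following counts describe the 155 beside the background of all transcripts.

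**Figure D1:**
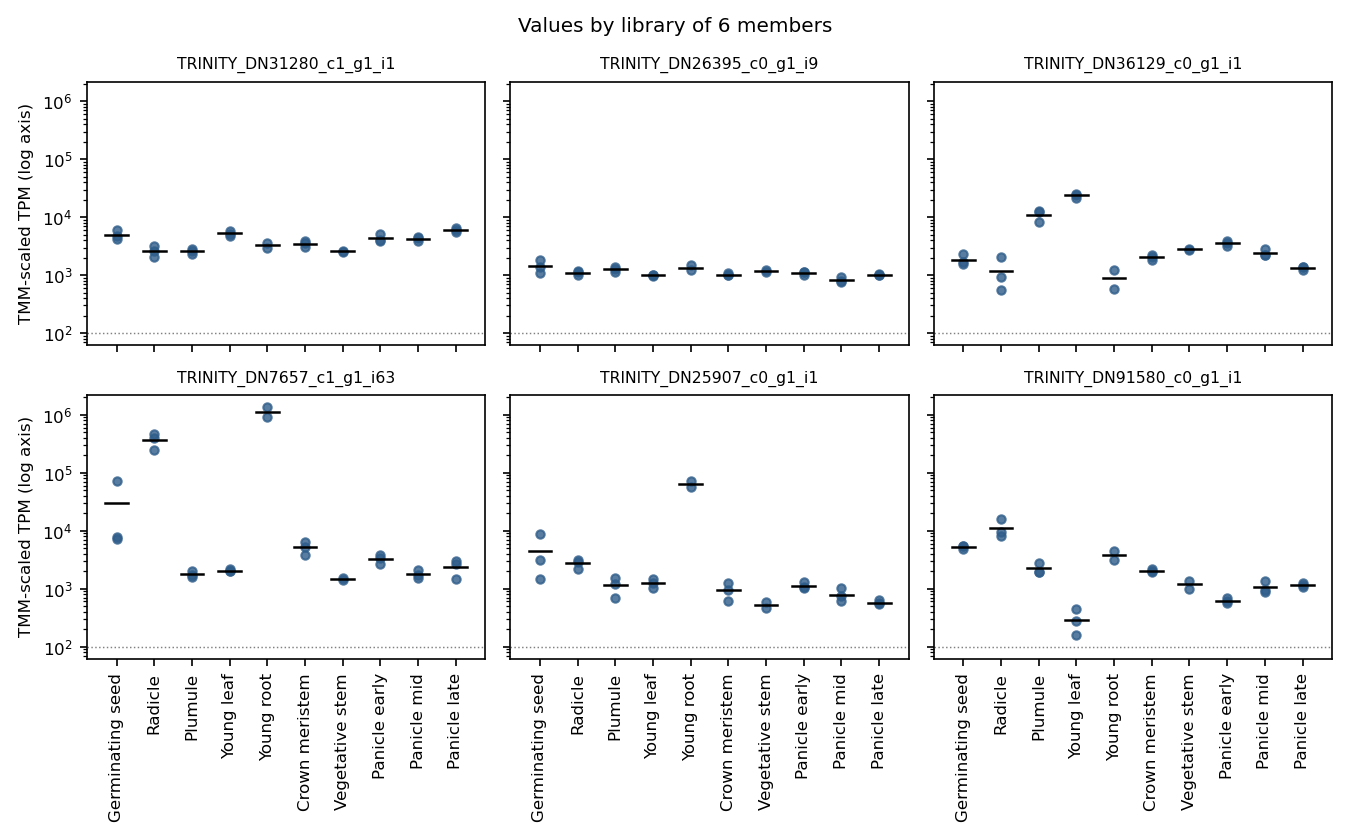
Values of 6 of the 155 transcripts by tissue, in TMM-scaled TPM on a log axis. Points are libraries, black bars tissue means and the dotted line the limit of 100. TRINITY_DN31280_c1_g1_i1 and TRINITY_DN26395_c0_g1_i9 stay within ratios of 2.32 and 1.73, while TRINITY_DN7657_c1_g1_i63 rises by a ratio of 772 to its young root mean.

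The 155 transcripts took a share of the library total that depended on the tissue and was highest in the root tissues. This share is the same with or without the scaling factor, since the factor multiplies a transcript and the total alike. It was 60.7% ± 6.11 in young root (SD, n = 2; libraries at 56.4% and 65.0%) and 42.6% ± 5.49 in radicle (n = 3; 37.2%, 48.2% and 42.5%). Germinating seed followed with 20.2% ± 5.35, and its libraries read 26.4%, 17.0% and 17.2%.

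In the other tissues the share was lower and closer between libraries. It was 14.6% ± 0.312 in crown meristem, 13.0% ± 0.557 in vegetative stem (n = 2), 12.0% ± 0.783 in panicle mid, 11.8% ± 0.962 in plumule, 11.6% ± 0.471 in panicle early and 10.5% ± 0.239 in young leaf (n = 3 where not given). Panicle late had the lowest share, 7.16% ± 0.693, with libraries at 6.77%, 6.75% and 7.96%. The libraries of young root and radicle lay above those of every other tissue, and those of panicle late below; plumule, panicle early and panicle mid overlapped.

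A pair of transcripts made up most of the root share. TRINITY_DN7657_c1_g1_i63 held on average 37.8% of the young root total and 23.8% of the radicle total, and TRINITY_DN22072_c0_g2_i1 held 12.0% and 6.20%. By tissue mean, TRINITY_DN7657_c1_g1_i63 alone passed 50% of what the 155 hold together in both root tissues; it held 45.7% of it in radicle library 1 and from 58.2% to 65.7% in the other root libraries. By the same count 30 transcripts were needed in crown meristem, vegetative stem and panicle late, and 8 in young leaf. Without this pair, the remaining members held 12.6% ± 2.00 of the radicle total and 11.0% ± 0.977 of the young root total, within the range of most shoot tissues. Of the total that the pair leaves, they held 22.0% ± 1.15 in young root, 18.0% ± 1.004 in radicle, 17.3% ± 1.95 in germinating seed, 10.3% ± 0.229 in young leaf and 6.92% ± 0.629 in panicle late.

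**Figure D2:**
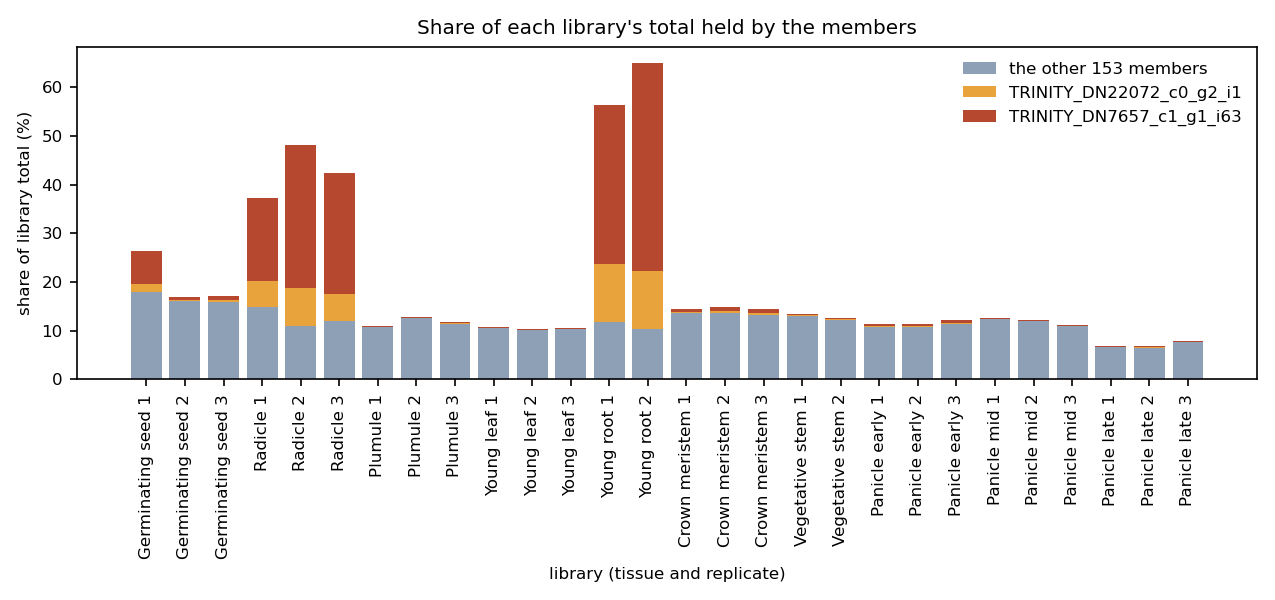
Share of each library's total, in percent, held by the 155 transcripts, with TRINITY_DN7657_c1_g1_i63, TRINITY_DN22072_c0_g2_i1 and the other members stacked. Each bar is 1 library; the young root bars reach 56.4% and 65.0% and the panicle late bars stay at or below 7.96%.

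The shared abundant transcripts also led most tissues by rank. All of the 10 most abundant transcripts of germinating seed and of crown meristem were among the 155, as were 9 in plumule, 8 in radicle and in vegetative stem, 7 in panicle early and in panicle mid, 5 in young root and 2 in young leaf. None was among the 10 most abundant transcripts of panicle late, whose first rank went to a transcript outside the set. Among the top 155 transcripts of a tissue, between 26 (young leaf) and 84 (crown meristem) were members.

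TRINITY_DN7657_c1_g1_i63 was high in the roots by more than 2 orders of magnitude over its floor. Its libraries read 902966 and 1368107 in young root and 251085, 461752 and 389854 in radicle. In germinating seed they read 73379, 7082 and 7909, and in crown meristem 3799, 6376 and 5198. Every library of the other tissues lay between 1435, in vegetative stem, and 3867, in panicle early. The root libraries overlapped no other, and the 3 seed libraries were split, the first at 9.79 times the mean of the others.

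TRINITY_DN22072_c0_g2_i1 had nearly the same profile. It read 327855 and 384212 in young root, 79273, 120620 and 86296 in radicle and 17975, 1782 and 2900 in germinating seed, and from 424 to 2936 elsewhere. Its ratio of highest to lowest tissue mean, 799, was the largest of the 155. Over the 28 libraries the log2 values of the pair correlated at Pearson's r = 0.992, a description over libraries that share tissue and scaling.

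Both were called elevated in the 2 root tissues together, a call that asks that radicle and young root each exceed all 8 other tissues at an adjusted p below 0.05 and by at least 1 on the log2 scale. The lower root mean of TRINITY_DN7657_c1_g1_i63 lay 4.47 above the highest other tissue (log2, adjusted p = 1.3e-05 by limma), and that of TRINITY_DN22072_c0_g2_i1 4.37 above it. Another transcript, TRINITY_DN70730_c0_g1_i2, passed with 1.24 (adjusted p = 0.015), with libraries at 3086 and 2827 in young root, 2578, 2320 and 3769 in radicle, and from 423 to 1792 elsewhere. These 3 of 155 stood beside 1.10% of all tested transcripts. With libraries rescaled to a common sum the first pair still passed, beside 0.19% of all, and after quantile normalization none did, beside 1.52%. That scaling gives equal values to equal ranks. TRINITY_DN7657_c1_g1_i63 was the highest member in every root and germinating seed library. Why the 3 calls were lost was not tested.

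Counted with this pair, 7 transcripts had a ratio of highest to lowest mean of 50 or more, all highest in young root; this group was formed after the values were seen, and the next ratio was 37.9. The others were TRINITY_DN85104_c0_g1_i1 (559), TRINITY_DN770_c0_g1_i16 (126), TRINITY_DN25907_c0_g1_i1 (122), TRINITY_DN44605_c0_g1_i4 (107) and TRINITY_DN17241_c0_g1_i6 (78.0). Together the 7 held 56.4% ± 6.88 of the young root total, 30.9% ± 7.64 of the radicle total and 5.79% ± 6.30 of that of germinating seed. Elsewhere they held between 0.430% in panicle late and 1.74% in crown meristem. The other 148 members held 4.27% ± 0.768 of the young root total. Of what the 7 leave, they held 9.79% ± 0.218 in young root, 16.9% ± 1.27 in radicle, 10.1% ± 0.209 in young leaf and 6.76% ± 0.614 in panicle late, the lowest of the 10 tissues.

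The 7 differed in how far radicle shared the young root level. Young root exceeded radicle by a factor of 3.09 for TRINITY_DN7657_c1_g1_i63 and 3.73 for TRINITY_DN22072_c0_g2_i1. The factor was 7.78 and 7.20 for TRINITY_DN44605_c0_g1_i4 and TRINITY_DN17241_c0_g1_i6, and 22.5 to 24.6 for TRINITY_DN770_c0_g1_i16, TRINITY_DN25907_c0_g1_i1 and TRINITY_DN85104_c0_g1_i1. These factors use the values as deposited, and the young root libraries had the highest scaling factors. TRINITY_DN44605_c0_g1_i4 and TRINITY_DN17241_c0_g1_i6 tracked each other most closely of all 11935 pairs among the members, at r = 0.997 over the 28 libraries.

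TRINITY_DN25907_c0_g1_i1 was among those of the group in which radicle stayed low. It read 56845 and 71210 in young root, 2934, 3101 and 2222 in radicle, 8804, 1455 and 3149 in germinating seed and from 465 to 1522 in the other tissues. Its young root libraries lay far above all others, while radicle and seed libraries overlapped. It was elevated in young root by 4.21 over the next tissue on the log2 scale (adjusted p = 1.9e-06 by limma), a call lost after quantile normalization, where the gap was 0.86.

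Germinating seed library 1 stood apart in the same 7 transcripts. Its value was 3.63 to 9.79 times the mean of seed libraries 2 and 3, and the 7 held 13.0% of its total against 1.66% and 2.68% in the other 2 seed libraries. In all, 10 members were at least 2 times higher in seed library 1 than in both other seed libraries, 2 were so in library 2 and none in library 3. The seed means and shares of these transcripts therefore rest mainly on 1 library.

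The tissue of the highest mean was mostly radicle or germinating seed. Radicle was highest for 54 members, germinating seed for 45, young root for 24, young leaf for 18, panicle late for 6, vegetative stem for 4, panicle early for 2 and crown meristem and panicle mid for 1 each, while plumule was highest for none. The lowest mean was in young leaf for 51 members and in panicle early for 24, and in germinating seed for none. This ranking depends on the scaling. In plain TPM, where all libraries have the same sum, germinating seed was highest for 41 members, radicle for 29, vegetative stem for 26, panicle mid for 20 and young root for 7, and young root was the lowest tissue for 78. In plain TPM 102 of the 155 still met the rule, and of the 53 that did not, 43 fell under 100 in young root.

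**Figure D3:**
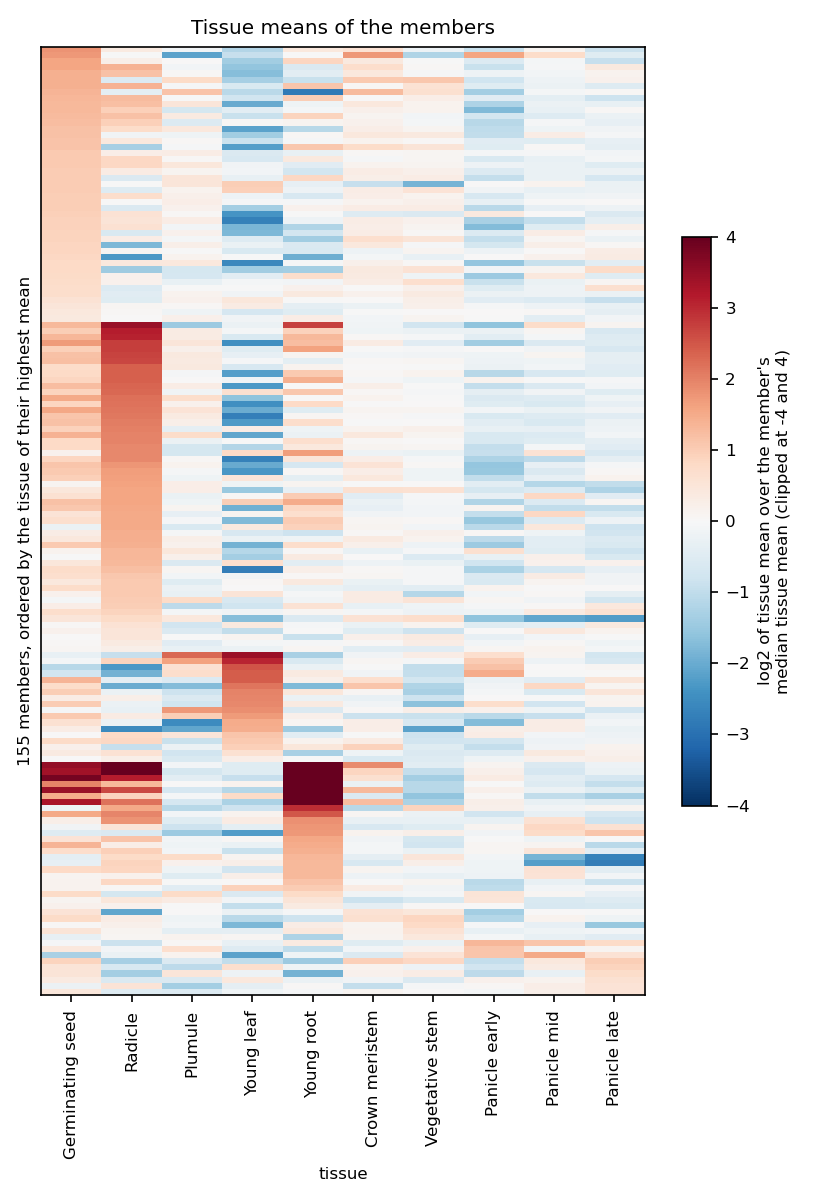
Tissue means of the 155 transcripts, as log2 of the mean over the transcript's own median tissue mean, on the values as deposited and clipped at -4 and 4. Rows are transcripts, ordered by the tissue of the highest mean; blocks highest in germinating seed (45), radicle (54), young leaf (18) and young root (24) follow from top to bottom, and in plain TPM young root is highest for 7.

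Few members had 1 tissue that stood clear of all others. To count as elevated in a tissue, a transcript had to have a mean there that exceeded each of the 9 other tissues at an adjusted p below 0.05 and lay at least 1 above the next on the log2 scale. Of the 155, 32 were elevated in 1 tissue, where 10% of all tested transcripts were. Among the 4171 tested transcripts that reached 100 in 1 to 9 tissues it was 1543, but these had to differ between tissues to be counted there. With libraries rescaled to a common sum 9 of the 32 calls remained and none was added, 5.81% of the 155 beside 7.84% of all tested transcripts. After quantile normalization 3 remained beside 1 other call, 2.58% against 9.91%. The members' share was thus above that of all transcripts as deposited and below it under both other scalings.

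Radicle accounted for 19 of the 32 calls, beside 2.11% of all tested transcripts. Their gaps to the next tissue ran from 1.01 to 2.14 (log2) with a median of 1.18, and for 14 of the 19 the next tissue was germinating seed. TRINITY_DN3412_c0_g1_i15 had the largest gap and was picked out after its values were seen. Its radicle libraries read 1988, 1585 and 1875, while all other libraries lay between 128, in panicle late, and 442, in young root, and did not overlap them. Its gap was 2.14 (adjusted p = 2.0e-09 by limma), and the call remained under both other scalings.

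TRINITY_DN91580_c0_g1_i1 had the highest radicle mean of the 19 and the smallest gap. Its radicle libraries read 15662, 7959 and 9414 and its germinating seed libraries 5486, 5449 and 4823, without overlap. The gap of 1.01 (adjusted p = 0.049) lost its call in 26 of 36 alternatives and was -0.44 after quantile normalization. It was 0.72 without radicle library 1, the highest of the 3. Its lowest tissue was young leaf, with libraries at 439, 274 and 159. Of the 19, the calls that held with a common library sum, beside 1.25% of all tested transcripts, were those on TRINITY_DN102_c0_g2_i1, TRINITY_DN3386_c0_g1_i2, TRINITY_DN3412_c0_g1_i15 and TRINITY_DN64132_c0_g1_i2.

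Young leaf had 7 elevated members, beside 2.65% of all tested transcripts, with gaps of 1.02 to 1.64 (log2). TRINITY_DN36129_c0_g1_i1 had the highest young leaf mean of them, 23873 ± 1914 (n = 3). It read 25455, 21746 and 24419 in young leaf and 12110, 8361 and 12733 in plumule, against 1230 and 583 in young root, 2071, 947 and 551 in radicle, and from 1214 to 3834 elsewhere. The leaf libraries overlapped no other, and plumule, the young shoot, came second. Its gap to plumule was 1.13 (adjusted p = 0.039), and the call was lost in 16 of 36 alternatives. These were the common library sum (0.68), quantile normalization (0) and leaving out any 1 of the young leaf, plumule or vegetative stem libraries, germinating seed 3, crown meristem 2, panicle early 2 or 3 or panicle late 1 or 2.

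The largest leaf gap was that of TRINITY_DN10878_c0_g1_i1, chosen after its values were seen. It read 682, 872 and 971 in young leaf and from 120 to 297 in all other libraries, a gap of 1.64 (adjusted p = 1.2e-07 by limma). Of the 7 leaf calls, 2 remained with a common library sum, beside 1.53% of all tested transcripts, this one and TRINITY_DN35933_c0_g1_i1. Without any 1 young leaf library 3 of the 155 were called in young leaf.

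Young root had 5 elevated members, beside 1.29% of all tested transcripts, and these were the 7 of the large ratios less the pair called in both roots. Their gaps were the widest of any tissue, 2.27 to 4.38 on the log2 scale, and germinating seed was the next tissue for all 5, with seed library 1 the highest of its tissue. TRINITY_DN7657_c1_g1_i63 was not called in young root alone, since its gap of 1.64 to radicle had an adjusted p of 0.33. Germinating seed had 1 elevated member, beside 0.392% of all tested transcripts. This was TRINITY_DN26288_c0_g1_i1, at 2516, 1762 and 1545 in the seed and at 969, 805 and 757 in crown meristem, the next tissue, a gap of 1.18 (adjusted p = 0.015). The call was lost without seed library 1, where the gap was 0.98 (adjusted p = 0.058), and with a common library sum.

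No member was elevated in plumule, beside 0.328% of all tested transcripts, in crown meristem (0.0864%), in vegetative stem (0.162%), in panicle early (0.823%), in panicle mid (1.31%) or in panicle late (0.870%). By limma's unadjusted p-values, with the same gap of 1, the count in each of these 6 tissues was also 0. Quantile normalization gave 1 call in vegetative stem.

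Root was set against shoot at 13 days, young root against young leaf, since mineral uptake by the plant is named in the study's title. On the values as deposited 66 of the 155 were higher in young root and 23 lower, (adjusted p under 0.05 and a log2 difference of 1 or more in size). Of all tested transcripts 12.6% were higher and 16.1% lower. The median difference was 0.66 (log2) over the 155 and 0 over all tested transcripts. That 0 is a weak baseline. Over all tested transcripts the median SD between the young root libraries was 0 (log2). Many thus had identical values in both, as transcripts listed at 0 in both libraries do. How many were listed at 0 was not counted, and the 12.6% and 16.1% rest on the same transcripts. The median of all tested transcripts also stayed at 0 with a common library sum. The balance turned over with a common library sum, to 22 higher and 62 lower with a median of -0.69, beside 5.96% and 20.4% of all tested transcripts. After quantile normalization it was 59 and 17, beside 13% and 16%. Libraries of both tissues did not overlap for all 66 higher and all 23 lower members, nor for 85.8% and 94.6% of all transcripts called higher and lower.

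The largest rise was that of TRINITY_DN22072_c0_g2_i1, higher in young root by 9.54 (log2, SE 0.57, adjusted p = 8.0e-12 by limma). The largest fall was that of TRINITY_DN36129_c0_g1_i1, lower by a log2 difference of -4.81 (SE 0.36, adjusted p = 4.1e-10). The library values of both are given above and do not overlap between the tissues. Both differences kept their direction and call with a common library sum, at 8.18 and -6.16.

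Radicle against plumule, at 3 days, gave 69 higher and 13 lower members, beside 9.65% and 22.7% of all tested transcripts. The median was 0.81 over the 155 and -0.37 over all tested transcripts. There were 34 higher and 35 lower with a common library sum, and a median of -0.044, beside 5.97% and 27.6% of all tested transcripts. After quantile normalization there were 29 and 34, beside 13.1% and 15.5%. The largest rise was that of TRINITY_DN7657_c1_g1_i63, 7.66 (SE 0.55, adjusted p = 1.0e-10 by limma), and the largest fall again that of TRINITY_DN36129_c0_g1_i1, -3.41 (SE 0.33, adjusted p = 1.2e-08). Libraries did not overlap for 68 of the 69 higher and for all 13 lower members, nor for 90.1% and 87.7% of all transcripts so called.

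Radicle library 3 and young root library 2 carry library identifiers of another series than the remaining libraries of these 4 tissues. With those libraries left out, each contrast lay within 1 identifier series. Without radicle library 3 there were 66 higher and 13 lower members in radicle against plumule. No share over all tested transcripts is given for this fit, so these counts have no background beside them. Without young root library 2, young root has 1 library, so no count is given for young root against young leaf. The other series holds no leaf or plumule library and gave no value.

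The directions at both ages were set side by side. As deposited, 40 members were higher in root at 3 and at 13 days, 7 were lower at both, 6 were called in opposite directions and 37 were called in neither, beside 5.29%, 9.75%, 1.57% and 55.6% of all tested transcripts. With a common library sum this balance reversed, to 10 higher at both ages, 24 lower at both and 5 opposite. After quantile normalization it was 15, 10 and 6. The shares of all tested transcripts were worked out only for the values as deposited, so these rescaled counts have no background beside them. TRINITY_DN59494_c0_g1_i1 was among those that turned, chosen after its values were seen. It read 1771, 1323 and 1611 in radicle and 585, 599 and 664 in plumule, but 582 and 269 in young root and 1494, 1645 and 1653 in young leaf. It was thus higher in root by 1.34 at 3 days and different by -2.01 at 13 days (log2), without overlap at either age. The later difference, with a common library sum, was -3.36, and the earlier one, at 0.49, was no longer called.

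TRINITY_DN18594_c0_g1_i1, picked in the same way, went the other way. It read 206, 252 and 177 in radicle and 541, 490 and 504 in plumule, and 913 and 1330 in young root and 100.3, 103 and 140 in young leaf. Its log2 difference was -1.28 at 3 days and 3.27 at 13 days, and with a common library sum -2.13 and 1.92, called at both ages.

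The change of the root-shoot difference between ages was tested directly, as young root minus young leaf less radicle minus plumule. It was higher at 13 days for 39 members and lower for 39, beside 14.4% and 8% of all tested transcripts, with a median of 0.19 over the 155 and 0.26 over all tested. The 4 tissues enter both this test and the contrasts above, so it is not independent of them. Under the common sum it was 21 higher and 54 lower, beside 10.3% and 7.64% of all tested transcripts, and after quantile normalization 60 and 16, beside 9.73% and 11.2%. Without young root library 2, young root has no replicate, so no count of this change is given for that fit.

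**Figure D4:**
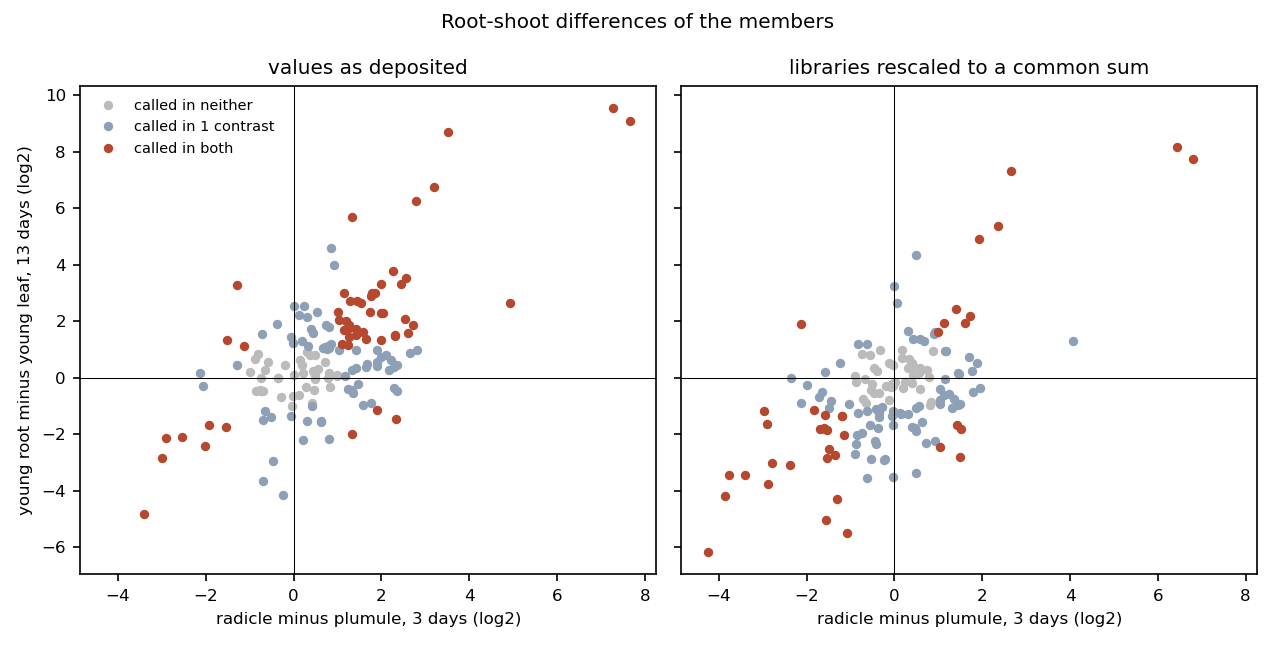
Root-shoot differences of the 155 transcripts at 3 days (x axis, radicle minus plumule) and 13 days (y axis, young root minus young leaf), both in log2, on the values as deposited (left) and with libraries rescaled to a common sum (right). Each point is a transcript, coloured by whether it was called in both contrasts (53 left, 39 right), in 1 or in neither; most points lie above 0 on the y axis on the left (66 called higher, 23 lower) and below it on the right (22 higher, 62 lower).

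Neighbouring stages of the panicle were compared next. From the early to the mid stage 18 were higher and 9 lower, beside 5.76% and 4.98% of all tested transcripts, with a median of 0.21 over the 155 and 0 over all tested. The largest rise among those whose libraries did not overlap was that of TRINITY_DN19679_c0_g1_i1, from 122, 198 and 228 to 382, 1279 and 1151, a difference of 2.22 (log2, SE 0.43, adjusted p = 0.00089 by limma). The largest fall was that of TRINITY_DN32772_c1_g1_i1, from 703, 1170 and 671 to 118, 187 and 323, a difference of -2.08 (SE 0.28, adjusted p = 1.2e-05). Libraries did not overlap for 17 of the 18 higher and for all 9 lower members, nor for 84.8% and 90% of all transcripts so called.

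From the mid to the late stage 3 members were higher and 8 lower, beside 2.81% and 5.16% of all tested transcripts, with a median of -0.033 over the 155 and 0 over all tested. TRINITY_DN302_c1_g2_i2 rose most, from 146, 249 and 184 to 358, 436 and 424, by 1.10 (log2, SE 0.30, adjusted p = 0.021 by limma), a call lost with a common library sum and without any 1 of 4 of the 6 libraries. TRINITY_DN5832_c0_g1_i13 fell most, from 731, 408 and 385 to 149, 179 and 230, a difference of -1.40 (SE 0.30, adjusted p = 0.0027), after having been at 98.4, 219 and 123 at the early stage. The 8 lower members included TRINITY_DN24635_c0_g1_i1, TRINITY_DN26535_c0_g1_i2 and TRINITY_DN70730_c0_g1_i2, all 3 among the 10 highest floors. Under the common sum none was higher and 41 were lower, beside 1.84% and 12.8% of all tested transcripts, and after quantile normalization 1 and 19, beside 3.33% and 3.94%.

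These 3 transcripts were also high in the roots. TRINITY_DN24635_c0_g1_i1 read 8358, 5795 and 9246 in radicle, 5886 and 4742 in young root and 6701, 4004 and 3053 in panicle mid, against 1748, 1859 and 2070 in crown meristem. TRINITY_DN26535_c0_g1_i2 read 8001 and 5520 in young root and 726, 1631 and 993 in panicle early. In each of the 3, panicle mid library 1 was the highest of its tissue.

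Of the other members with the highest floors, TRINITY_DN105150_c0_g1_i1 varied most between replicates. Its young root libraries read 7228 and 26349, its vegetative stem libraries 6286 and 1799 and its germinating seed libraries 1171, 3390 and 1130, so that no order of these tissues could be read. TRINITY_DN21047_c0_g1_i1 was elevated in radicle, at 4752, 3071 and 3435, with 1385, 1333 and 1170 in germinating seed and from 409 to 787 elsewhere. Its young root libraries, at 480 and 763, lay within the range of the shoot tissues. Over all members the median SD between replicates, on the log2 scale, was smallest in vegetative stem (0.0938) and largest in radicle (0.324).

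Profiles of the members were compared in pairs on the values as deposited, with no pairs of other transcripts set beside them. Over the 11935 pairs among them, Pearson's r of the log2 values over the 28 libraries had a median of 0.231, with 3689 pairs below 0 and 55 at 0.95 or more. Within the set 3 pairs shared a DN number, and only 1 of them also shared the c number and so the assembly cluster. TRINITY_DN302_c0_g1_i3 and TRINITY_DN302_c1_g2_i2 correlated at 0.9503, both elevated in young leaf. TRINITY_DN4525_c0_g2_i2 and TRINITY_DN4525_c0_g4_i2, which share the cluster, correlated at 0.525. TRINITY_DN770_c0_g1_i16, high in young root, and TRINITY_DN770_c5_g1_i1, of the same DN number, correlated at 0.0054. At least 1 further transcript shared the DN number of 67 of the 155 members, 43.2%, where 25.5% of all transcripts have such a mate.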

How the data were processed

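RNA of 10 tissues was sequenced as 28 TruSeq libraries. A de novo Trinity assembly and kallisto TPM were made by the authors, per the labels. The submitters' processing notes name CASAVA, Trimmomatic and kallisto, without versions. The deposited signal values are, by the name of the table, TPM scaled by a TMM factor per library. Library sums differed, from 660796 to 3202138. Such values keep no read totals, so the depth is unknown and no counting interval was given. The labels name 2 extraction methods, without saying which served which library. No genome, transcript sequence or annotation was used here.

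All values, shares and counts were computed from that table. A low filter (1 or more in 2 or more libraries) left 77548 transcripts, which were tested by limma 3.58.1 (R 4.3.3) on log2(value + 1), 1 mean per tissue, with all 28 libraries and an intensity trend, and p-values were Benjamini-Hochberg adjusted over all of them. Differences on this scale understate changes of low transcripts. The fits were tested on simulated data. Shares and correlations used Python 3.11.15 with pandas 2.3.3 and numpy 2.4.6, and figures matplotlib 3.10.9.

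The members, lists and tests were chosen with earlier results of these data known. Transcripts were named by rule: the 10 highest floors, 3 on each side of the limit, the highest elevated one per tissue, the 3 largest and 3 smallest ratios, the 3 largest shares and the largest rise and fall per contrast without overlap. Any other was listed as part of a count, group or pair, or was chosen after its values were seen, as the text says. Tried as alternatives were each library left out, other membership rules, scalings, filters and pseudocounts, a replicate block, and the identifier series as covariate. Library identifiers fall into 2 series, of 15 and 13 libraries, and all panicle and stem libraries lie in the second. Replicate numbers did not pair libraries: over 118 same-numbered pairs the deviations from tissue means correlated at 0.0021 on average, with 3 pairs above 0.1.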

Additional observations from a re-analysis of the deposited data

Results flagged for a closer look

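In 2 of the transcripts named for a largest root-shoot rise or fall, that difference itself differed between seedling ages by limma's interaction term. TRINITY_DN22072_c0_g2_i1 was higher in root at both ages, and its log2 difference was 2.25 larger at 13 days than at 3 days (SE 0.76, adjusted p = 0.034). With a common library sum its differences were 8.18 and 6.43. TRINITY_DN36129_c0_g1_i1 was lower in root at both ages, and its log2 difference was more negative at 13 days, by -1.41 (SE 0.49, adjusted p = 0.041). With a common library sum these were -6.16 and -4.26. Radicle libraries of TRINITY_DN36129_c0_g1_i1 spread from 551 to 2071. Other transcripts named by rule also had unlike differences at the 2 ages, in either direction. As deposited, the log2 difference was 8.68 at 13 days and 3.51 at 3 days for TRINITY_DN85104_c0_g1_i1. For TRINITY_DN19679_c0_g1_i1 it was 2.65 at 13 days and 4.93 at 3 days.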

How the results depend on the processing

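Of the processing choices, the scaling moved the results most. With libraries rescaled to a common sum (then after quantile normalization), the members elevated in 1 tissue numbered 9 (4), those in germinating seed 0 (0), in radicle 4 (3), in young leaf 2 (0) and in young root 3 (0), and those in both root tissues were 0 after quantile normalization. Young root against young leaf gave 22 higher and 62 lower with a median log2 difference of -0.69 under the common sum. Radicle against plumule gave 34 (29) higher and 35 (34) lower, with a median of -0.044 (0.14). Panicle late against mid gave 0 (1) higher and 41 (19) lower, with a median of -0.67 (-0.33). The change between ages gave 21 (60) higher, 16 lower after quantile normalization, and a median of -0.31 (0.75). Over all tested transcripts the median moved from -0.37 to -0.56 (-0.033) for radicle against plumule, from 0 to -0.12 (0) for panicle late against mid, and from 0.26 to 0.25 (0) for the change between ages, and stayed at 0 for young root against young leaf. The gap of TRINITY_DN91580_c0_g1_i1 in radicle became -0.44 after quantile normalization. The identifier series as a covariate left 4 members elevated in young leaf and 0 in germinating seed. These stood beside 1214 and 171 of the 77548 tested transcripts. Only radicle and young root hold libraries of both series, so that covariate was estimated from these tissues alone. Rescaling to a common sum multiplies each library by 1 factor, so it moved the log2 differences of the members by nearly the same amount. In young root against young leaf TRINITY_DN22072_c0_g2_i1 moved from 9.54 to 8.18 and TRINITY_DN36129_c0_g1_i1 from -4.81 to -6.16. The cause of the unequal library sums was not tested, nor was that of the other shifts.

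A lowest mean of 50 admitted 462 transcripts and one of 200 kept 57. Without the member of the largest share the members held 18.8% in radicle, 23.0% in young root and 13.9% in crown meristem. Without both members over 10% they held 12.6%, 11.0%, 13.5% and, in panicle early, 11.0%. The 100 highest floors alone held 9.80% in plumule, 9.30% in young leaf, 11.7% in crown meristem, 10.5% in vegetative stem, 9.65% in panicle early, 9.75% in panicle mid and 5.68% in panicle late.

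Leaving out 1 library at a time, 151 to 154 members differed among tissues, 24 to 32 were elevated in 1 tissue, 0 to 2 in germinating seed, 13 to 20 in radicle, 3 to 7 in young leaf, 4 to 7 in young root and 2 to 3 in both roots. Young leaf calls fell to 3 without each leaf library and to 4 without germinating seed 3, crown meristem 2, vegetative stem 1 or 2 or panicle late 2. Germinating seed calls fell to 0 without seed 1, young root 1 or 2 or crown meristem 2 or 3, and rose to 2 without radicle 1. Radicle against plumule gave 66 to 71 higher and 13 to 17 lower, and panicle mid against early 18 to 21 and 6 to 11. Panicle late against mid gave 0 to 3 higher and 6 to 10 lower. There were 0 higher without panicle mid 3 or panicle late 3 and 1 without panicle mid 1 or panicle late 2. The change between ages gave 28 to 41 higher and 25 to 43 lower, the fewest lower without young root 2. The rule chose 145 to 165 transcripts. Shares ran from 17.1% to 21.8% in germinating seed, 39.8% to 45.3% in radicle, 11.3% to 12.3% in plumule, 10.4% to 10.7% in young leaf, 56.4% to 65.0% in young root, 14.4% to 14.7% in crown meristem, 12.6% to 13.4% in vegetative stem, 11.3% to 11.7% in panicle early, 11.7% to 12.5% in panicle mid and 6.76% to 7.37% in panicle late.

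With the replicate number as a block, 151 members differed among tissues, 30 were elevated in 1 tissue, 67 were higher and 22 lower in young root and 69 higher and 13 lower in radicle. No shares over all tested transcripts are given for this setting, so these counts have no background beside them. The replicate numbers do not pair the libraries. Read depth is unknown, so how far it limits low values could not be told.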
